A study of Mus musculus with 3 samples.

Results

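The authors listed 31850 regions from an SRF chromatin immunoprecipitation experiment on mouse cornea. Of these, 7390 (23.2%, exact binomial 95% interval 22.7 to 23.7) carried no gene in the authors' assignment and overlapped no CpG island. They were chosen by these annotations alone, an empty gene list and a CpG island count of 0, and not by their signal. A library came from whole cornea of Dstn-corn1 mutant mice, which carry a mutation in the gene of destrin, an actin-depolymerizing protein, and another from wildtype mice. Both were of mixed background, untreated and about 8 weeks old, and an input library without antibody, of a genotype the labels do not give, completed the set; its signal was not analysed here. The genotypes are those of the sample titles, although the growth protocol names mutant mice for every library. Each genotype had 1 library, so no difference between genotypes can be set against a spread of replicates, and no test was made. Values are peak heights, meaning the maximum signal that the authors list for a region in a library. The read depth behind them is unknown, and whether they were scaled for it could not be learned from the labels or headers. In whole cornea, fewer cells of a type and less binding per cell cannot be told apart. A chromatin assay measures no RNA, so the tissue label could not be checked against marker genes.

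SRF, the serum response factor, binds as a dimer to the CArG box, an A/T-rich element flanked by CC and GG, and regulates actin cytoskeleton genes with MRTF cofactors and growth-responsive genes with TCF cofactors. Regions far from genes can be distal enhancers, which act on genes at a distance through chromatin loops, or insulators, at which the zinc finger protein CTCF halts loop formation. They can also lie at genes that an annotation lacks.

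The label intergenic held in part. In the authors' gene table the nearest gene to any of the 7390 regions was 10008 bp away, and 15973 of 15982 other regions with a single gene lay within 10 kb of it. Just beyond that limit, 398 regions 10 to 12 kb from the nearest gene had a median height of 16 in mutant and 34 in wildtype. Just within it, 606 regions 8 to 10 kb from their gene had 15 and 32.5. In the later RefSeq annotation of the same assembly (GRCm38.p6), 1653 of the 7390 regions (22.4%) overlapped a gene. A protein-coding gene was overlapped by 414, a long noncoding RNA (lncRNA) gene but no protein-coding gene by 1102 (14.9%, 14.1 to 15.7), and another kind of gene by 137. The remaining 5737 (77.6%, 76.7 to 78.6) overlapped no RefSeq gene. They are therefore called regions without an assigned gene below.

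RefSeq promoter windows of 300 bases around gene starts overlapped 121 of these regions. Of the 128 windows, 121 belonged to lncRNA genes and 7 to protein-coding genes, and 64 windows held the summit of an interval, the position of its highest signal. The regions with a window were higher than the set, with medians of 17 in mutant and 40 in wildtype, against 12 and 29. These windows give the sequence beneath a small share of the regions. Shown are those of the 2 highest regions with a window and of the 2 highest whose window held a CArG box. They are from RefSeq, GRCm38.p6, each 5′ to 3′ on the strand of its gene. Capitals mark matches to the CArG box or to CCANNAGNNGG, the core of the motif known for CTCF.
Gm31408, chr9:31559448-31559747, plus strand: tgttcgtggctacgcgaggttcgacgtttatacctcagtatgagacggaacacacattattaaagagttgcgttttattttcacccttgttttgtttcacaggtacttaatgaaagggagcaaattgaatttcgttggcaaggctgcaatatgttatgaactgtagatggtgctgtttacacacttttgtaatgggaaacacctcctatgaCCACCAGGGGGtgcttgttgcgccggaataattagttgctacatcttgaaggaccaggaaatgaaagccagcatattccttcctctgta
Gm41504, chr16:94713858-94714157, minus strand: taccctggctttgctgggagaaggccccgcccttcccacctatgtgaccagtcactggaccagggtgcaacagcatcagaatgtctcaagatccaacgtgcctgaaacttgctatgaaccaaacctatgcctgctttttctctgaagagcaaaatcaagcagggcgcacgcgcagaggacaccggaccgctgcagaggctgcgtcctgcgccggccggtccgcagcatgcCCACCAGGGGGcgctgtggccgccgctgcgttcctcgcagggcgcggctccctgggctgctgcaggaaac
Gm30470, chr11:79224435-79224734, plus strand: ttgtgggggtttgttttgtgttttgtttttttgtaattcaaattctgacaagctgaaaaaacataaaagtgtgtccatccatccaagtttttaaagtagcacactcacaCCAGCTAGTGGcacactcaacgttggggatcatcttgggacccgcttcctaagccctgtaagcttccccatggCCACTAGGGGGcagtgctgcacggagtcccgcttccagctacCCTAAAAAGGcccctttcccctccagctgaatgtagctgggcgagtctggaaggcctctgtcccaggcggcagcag
Gm39558, chr15:85001207-85001506, plus strand: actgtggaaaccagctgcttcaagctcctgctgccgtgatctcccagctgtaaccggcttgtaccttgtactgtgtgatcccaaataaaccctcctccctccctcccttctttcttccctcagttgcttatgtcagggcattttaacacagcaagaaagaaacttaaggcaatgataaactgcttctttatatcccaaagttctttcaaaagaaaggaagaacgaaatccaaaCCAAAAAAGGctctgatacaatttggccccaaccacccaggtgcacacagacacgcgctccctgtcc

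The region at the start of the lncRNA gene Gm31408 reached 64 in mutant and 153 in wildtype, and the centre of its CCACCAGGGGG match lay 32.5 bp from the nearest summit. At Gm41504 the heights were 47 and 133, with the same 11 letters 33.5 bp from a summit. At Gm30470, with 28 and 82, both motifs were present. Its CArG box CCTAAAAAGG was 24 bp from the nearest summit and its closer CCANNAGNNGG match 14.5 bp. At Gm39558, with 29 and 63, the CArG box CCAAAAAAGG was 91 bp from the nearest summit. CArG boxes also stood in the windows of Gm34583 (CCATAAAAGG, heights of 21 and 42) and Gm30034 (CCTTAAATGG, 19 and 31), which completed the 4 windows with one. All 6 of these regions were called in both libraries, and all were higher in wildtype.

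Over the windows with a summit, the CArG box was rare and the CTCF-type core was frequent. The CArG box, searched on both strands without mismatch, was in 1 of 64 windows with a summit of a region without an assigned gene (1.56%, exact binomial 95% interval 0.0396 to 8.40) and in 1.63% of all 32817 windows. It was as rare in windows with a summit of another region, at 1.41%, and in windows without any summit, at 1.67%. CCANNAGNNGG, searched on both strands, was in 26 of the 64 (40.6%, 28.5 to 53.6) and in 7.03% of all windows. Windows with a summit of another region held it in 11.3% (10.4 to 12.2, 5033 windows), or in 17.6% for lncRNA genes (14.3 to 21.3, 489 windows), and windows without any summit in 6.18% (5.90 to 6.47). In all 26 windows a match was within 50 bp of a summit, at a median of 11.5 bp. TGANTCA, the motif known for AP-1, which FOS and JUN proteins form, was in 3 of the 64 windows (4.69%, 0.977 to 13.1) and in 7.81% of all windows. In windows with a summit of another region its share was 3.76%, or 5.93% for lncRNA genes, and in windows without any summit 8.56%. No CArG box shared a base with a CCANNAGNNGG match in any of the 32817 windows. CCANNAGNNGG was chosen after the sequences of the 3 highest windows had been read. Without these windows it was in 23 of 61 (37.7%, 25.6 to 51.0). With 1 base more, CCANNAGNNGGC, it was in 18 of 64 (28.1%), against 5.98% with a summit of another region and 1.72% without a summit. A match describes the letters and not a bound site. The windows sample gene starts, and the sequence of the other regions was not used here.

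**Figure D1:**
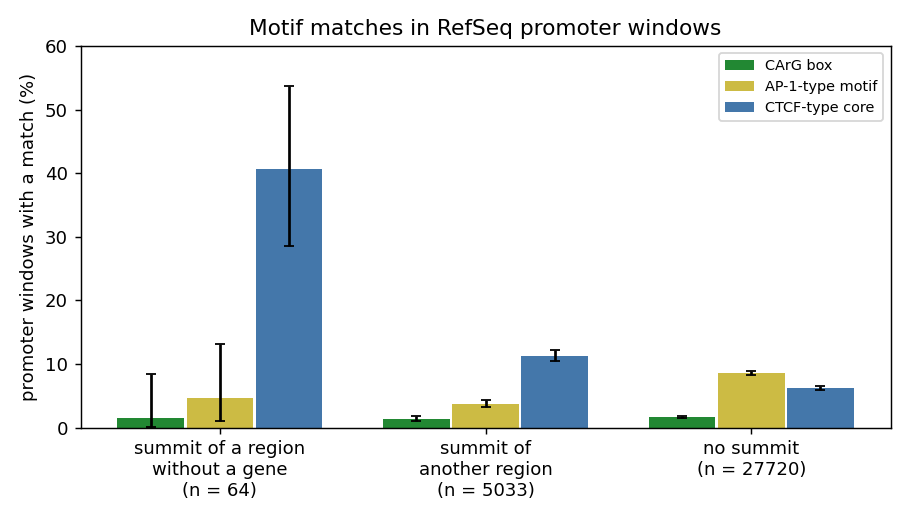
Share of RefSeq promoter windows (percent, vertical axis) holding a CArG box (green), an AP-1-type motif (yellow) or a CTCF-type core (blue), by whether the window held a summit of a region without an assigned gene, a summit of another region or no summit. Bars carry exact binomial 95% intervals; the CTCF-type core stood in 40.6%, 11.3% and 6.18% of windows.

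The 26 windows with the CTCF-type core belonged to regions with median heights of 19.5 in mutant (quartiles 14.25 and 28.75) and 41.5 in wildtype (28 and 59), and 19 of them to regions called in both libraries. The 38 windows with a summit but no such match had medians of 12.5 (9 and 21.25) and 35.5 (21.5 and 55.75), with 18 called in both. These ranges overlapped. Mir100hg, the host gene of a microRNA cluster, was among the genes with a window and was picked after its values were seen. Its region at chr9:41474477-41475285 reached 38 in mutant and 65 in wildtype.

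Peak heights as listed were lower in mutant than in wildtype at nearly all regions without an assigned gene. Wildtype was also higher in 95.4% of all regions, whose median log2 ratio of mutant over wildtype was -1.10. With both libraries scaled to a common median, as given below, 66.9% of regions without a gene were lower in mutant and 32.8% higher. Their median height as listed was 12 in mutant (quartiles 7 and 19) and 29 in wildtype (19 and 43). Over all other regions the medians were 14 (9 and 21) and 28 (18 and 45), so that regions without a gene had the lower median in mutant and the slightly higher one in wildtype. Gene-assigned regions without CpG island or promoter had 13 (8 and 20) and 30 (20 and 45). The highest reached 118 and 241, and the lowest were listed at 0 in mutant, where 18 regions were, and at 1 in wildtype. Very high regions were scarcer than among other regions as a whole. The highest stood at rank 22 among all regions by mean of both heights, and the set supplied 8 of the top 100, 124 of the top 1000 (12.4%, 10.4 to 14.6) and 2134 of the top 10000 (21.3%, 20.5 to 22.2), against its 23.2% of all regions. A height of 100 or more in either library was reached by 97 of the regions, or 1.31%, against 2.74% of other regions. The 95th percentiles of height were 32 in mutant and 69 in wildtype. They were nearly the same in gene-assigned regions without CpG island or promoter, at 33 and 71, and were 37 and 81 in other regions as a whole.

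By the authors' calls, 3094 regions without an assigned gene had an interval in both libraries (41.9%, 40.7 to 43.0), 4209 in wildtype only (57.0%, 55.8 to 58.1) and 87 in mutant only (1.18%, 0.944 to 1.45). Over all 31850 regions these shares were 48.9%, 49.0% and 2.10%. Gene-assigned regions that, like this set, had no CpG island and no promoter were in between, with 46.8% in both and 51.7% in wildtype only. Of the mutant intervals 3199 stood in regions without a gene (19.5%, 18.9 to 20.1), and of the wildtype intervals 7314 (23.4%, 22.9 to 23.9). The binomial intervals cover counting over regions and not variation between animals.

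The calls followed height closely. Regions called in both libraries had median heights of 20 in mutant and 43 in wildtype, those called in wildtype only 8 and 22, and those called in mutant only 14 and 9. No region with a mean height below 10 was called in both. That share was 9.56% for mean heights from 10 to 20, 55.2% from 20 to 30, 86.6% from 30 to 40 and 97.7% from 40 to 50. Other regions of the same height classes were called in both more often at the low end, at 19.6% from 10 to 20 and 64.2% from 20 to 30, and about as often from 40 to 50, at 97.6%. For gene-assigned regions without CpG island or promoter the low-end shares were 11.5% (10.6 to 12.5) and 58.3% (56.6 to 60.001). These were higher than in regions without a gene, with intervals that overlapped only at their ends (8.53 to 10.7 and 52.9 to 57.5). Over the 7390 regions the 2 heights had a Spearman correlation of 0.73 and a Pearson correlation of 0.82, as a description over regions that share both libraries.

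**Figure D2:**
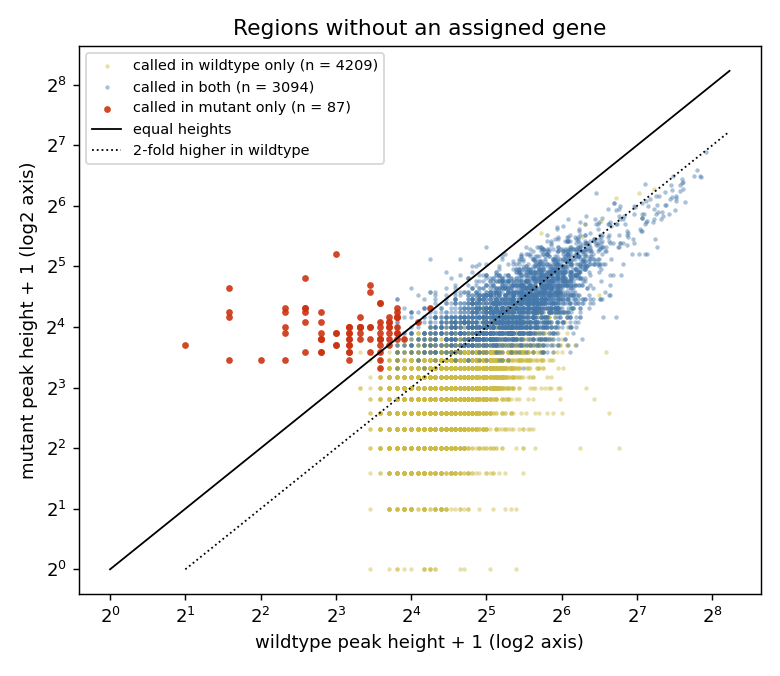
Peak height plus 1 in mutant (vertical, log2 axis) against wildtype (horizontal, log2 axis) for each of the 7390 regions without an assigned gene, coloured by the library in which the authors called an interval. Most points lie below the line of equal heights, and the 87 regions called in mutant only lie mostly above it.

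The median log2 ratio of mutant over wildtype height, with 1 added to each, was -1.26 (quartiles -1.69 and -0.89), against -1.10 over all regions, -1.06 over other regions and -1.17 over gene-assigned regions without CpG island or promoter. Weighted to the same mean heights, the medians were -1.06 for other regions and -1.18 for gene-assigned regions without CpG island or promoter. In 7234 of the 7390 regions (97.9%) wildtype was higher, and in 133 (1.80%) mutant was. These shares were 95.4% and 3.69% over all regions, and 97.3% and 2.19% over gene-assigned regions without CpG island or promoter. At least 2-fold higher in wildtype were 5165 (69.9%, 68.8 to 70.9), against 59.0% of all regions and 64.4% of gene-assigned regions without CpG island or promoter. At least 2-fold higher in mutant were 26 (0.352%, 0.230 to 0.515), against 0.414% of all regions. Scaling both libraries to a common median over regions called in both moved the median over all regions from -1.10 to -0.090, that of regions without a gene to -0.25 and that of other regions to -0.042. Under that scaling 66.9% of them were lower in mutant and 32.8% higher, against 53.0% and 46.7% of other regions. At least 2-fold higher in wildtype were then 1103 of them (14.9%), against 7.60% of other regions. With either scaling the median of regions without a gene was below that of other regions. With the common scaling, that of gene-assigned regions without CpG island or promoter was between them, at -0.16.

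The difference from other regions was in the low and middle classes of height. For mean heights from 10 to 20, regions without an assigned gene had a median log2 ratio of -1.29 (3023 regions) and other regions -0.91 (10128). In that class gene-assigned regions without CpG island or promoter had -1.17, nearer to regions without a gene than to other regions as a whole. From 20 to 30 the medians were -1.21 and -1.04, with -1.13 for gene-assigned regions without CpG island or promoter, and from 40 to 50 -1.16 and -1.14. From 50 to 75 the order turned, with -1.11 for 273 regions without a gene and -1.17 for 1367 others. Over regions called in both libraries the medians were -1.03 and -0.94, with -1.0 for gene-assigned regions without CpG island or promoter. A region is listed where either library had an interval, and listing through wildtype alone favours a low ratio. From 10 to 20, 9.56% of regions without a gene were called in both, against 19.6% of other regions. Regions without a gene called in wildtype only had a median of -1.51. The differences within height classes therefore cannot be told apart from the mix of calls.

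The 10 highest regions without an assigned gene lay between known genes, given here as the nearest protein-coding genes of RefSeq on each side. The highest, at chr1:181888270-181889577, reached 118 in mutant and 241 in wildtype. It lay 6.81 kb from Enah, which encodes an Ena/VASP protein that promotes actin filament elongation, and 45.9 kb from Lbr, a lamin B receptor gene. With the common scaling its log2 ratio of -1.02 turned to 0.040. At chr5:130852837-130854525, inside the lncRNA gene Gm40337 and between Caln1 and the glycosyltransferase gene Galnt17, the heights were 88 and 230. At chr9:111289371-111290476, between Epm2aip1 and Trank1, they were 95 and 222. The 4th, at chr5:120101493-120103982, reached 89 and 227 and lay 12.5 kb from Rbm19, a ribosome biogenesis gene, and 216 kb from Tbx5, a T-box transcription factor gene.

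The region at chr15:96936304-96937411 between the amino acid transporter genes Slc38a2 and Slc38a4 had 89 and 215. At chr10:126918876-126919704, between Atp23 and Ctdsp2, the heights were 86 and 192, and the next region was 1.02 kb away. At chr3:122638238-122639371, 18.5 kb from Fnbp1l, which encodes an activator of actin assembly, and 89.8 kb from the cyclic GMP phosphodiesterase gene Pde5a, they were 83 and 195. The region at chr3:90708330-90710682, between S100a9, a calprotectin subunit gene of inflamed epithelium, and Pglyrp4, a peptidoglycan recognition protein gene, had 82 and 193. At chr12:112551207-112552915, 35.8 kb from Inf2, a formin gene, they were 77 and 195, and at chr6:50936809-50940589 in the lncRNA gene Gm31686 80 and 189. All 10 were called in both libraries, with log2 ratios from -1.38 to -1.02, against the median of -1.10 over all regions.

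By heights as listed, regions that were higher in mutant were few and mostly low. With the common scaling 32.8% of regions without a gene were higher in mutant, against 46.7% of other regions. Heights as listed are used here. The rule for the largest ratios admitted regions whose higher height was at least 28, the median of that value over all regions. The largest was at chr15:43720701-43721337, between Emc2 and Tmem74, with 36 in mutant and 7 in wildtype and a call in mutant only. It was followed by chr1:172423287-172424004, between Pigm and Slamf9, with 34 and 18, and chr16:36473055-36473755, between the stefin gene Stfa3 and the calcium-sensing receptor gene Casr, with 34 and 24. At chr15:59759335-59760150, 102 kb from the pseudokinase gene Trib1, the heights were 29 and 21, and at chr3:121601836-121602508 in the lncRNA gene Gm33485 39 and 31. These 4 were called in both libraries.

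Among the 87 regions called in mutant only, the highest after that at chr15 were at chr12:8888334-8889022 (27 in mutant and 5 in wildtype), at chr2:102958936-102959817 (25 and 10) and at chr6:140357938-140358407 (24 and 2). The region on chromosome 2 lay 57.3 kb from Cd44, a hyaluronan receptor gene.

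The regions most in favour of wildtype were at or near 0 in mutant. At chr17:83000488-83000969, between Slc8a1 and Pkdcc, the mutant library was listed at 0 and wildtype had 41. At chr18:3039204-3039773, near the start of the chromosome, the values were 0 and 32. No fold is given for these. At chr19:30289625-30290306, between Mbl2 and Dkk1, a Wnt antagonist gene, the heights were 3 and 107, a log2 ratio of -4.75. At chr8:34993325-34994127, 27.6 kb from Tnks, they were 1 and 41, and at chr13:60257918-60258281, 80.4 kb from Gas1, 1 and 39. None of these 5 was called in mutant.

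Regions without an assigned gene were shorter than other regions and nearly as long as the gene-assigned ones most like them. Their median length was 576 bp (quartiles 470 and 676), against 643 bp (525 and 764) in other regions and 604 bp (492 and 698) in gene-assigned regions without CpG island or promoter. Weighted to the same mean heights, the medians were 634 bp for other regions and 592 bp for gene-assigned regions without CpG island or promoter. A length of 1000 bp or more was found in 215 of the regions (2.91%, 2.54 to 3.32), against 9.56% of other regions. It was found in 3.49% (3.17 to 3.83) of gene-assigned regions without CpG island or promoter, whose interval overlapped only at its lower end. Length went with height, with a Spearman correlation of 0.75 over the 7390 regions, and the 3 longest (3780, 2489 and 2352 bp, on chromosomes 6, 5 and 3) were among the 10 highest. A single interval made up 4296 regions (58.1%).

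Within regions called in both libraries, the summits stood in nearly the same place. The highest summits of the mutant and wildtype library were a median of 16 bp apart over 3094 regions without a gene (quartiles 0 and 32), and 98.2% were within 100 bp (97.7 to 98.7). In 12493 other regions the quartiles were the same, the median was 32 bp and 93.1% (92.6 to 93.5) were within 100 bp. Values of 0 and 32 bp recurred, so summits may be listed in steps, which was not tested. The medians are therefore not read as different, and distances of motif matches to summits share this limit.

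Every chromosome carried regions without an assigned gene, in unequal shares. The numbers ran from 567 on chromosome 1 to 165 on chromosome 19 among autosomes, with 227 on X and 4 on Y. As a share of all regions of a chromosome they were highest on X (35.8%, 32.1 to 39.7), followed, Y aside, by chromosome 13 (29.6%, 27.1 to 32.2) and chromosome 3 (29.3%, 27.1 to 31.6). The interval of X overlapped that of chromosome 13 but not that of chromosome 3. The lowest shares were on chromosomes 19 (16.0%, 13.8 to 18.4) and 11 (16.2%, 14.8 to 17.8), which also overlapped. The share on Y, 4 of 13, had an interval of 9.09 to 61.4.

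Heights varied little between autosomes. Median heights of regions without a gene ran from 11 to 13 in mutant and from 27 to 33 in wildtype, their median log2 ratios from -1.30 to -1.20, and their shares called in both from 38.2% to 47.9%. X stood apart with 7 in mutant and 20 in wildtype, a median log2 ratio of -1.45 (order-statistic 95% interval -1.51 to -1.36) and 34 of 227 regions called in both (15.0%, 10.6 to 20.3). Other regions on X were low too, with 9 and 20, a median log2 ratio of -1.18 and 29.2% called in both. The sex of the mice is not in the labels.

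Regions without a gene lay nearer to one another than to regions outside the set, by the median. The nearest other region of the same set was a median of 35.6 kb away, centre to centre (quartiles 7.92 and 148), and the nearest region outside the set 67.5 kb (29.3 and 167). The rule keeps these regions over 10 kb from the genes that other regions were assigned to. That bears on the second distance and on the runs and clusters below, which were not measured for other sets. Another region of any kind was within 10 kb for 2361 of them (31.9%), against 45.9% of other regions, at median distances of 20.2 and 11.6 kb. For gene-assigned regions without CpG island or promoter these were in between, at 39.8% and 14.03 kb. Nearest distances depend on how many regions a set has. Reading along the chromosomes, 1468 stood alone between other regions, and the rest formed runs of 2 to 13 with no other region between. The longest run, of 13, spanned 1962 kb at chr13:38689878-40651604, with heights from 4 to 21 in mutant and from 13 to 48 in wildtype. A run of 12 on chromosome 12 (45161993 to 49369356) spanned 4207 kb and had 1 region called in both libraries.

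**Figure D3:**
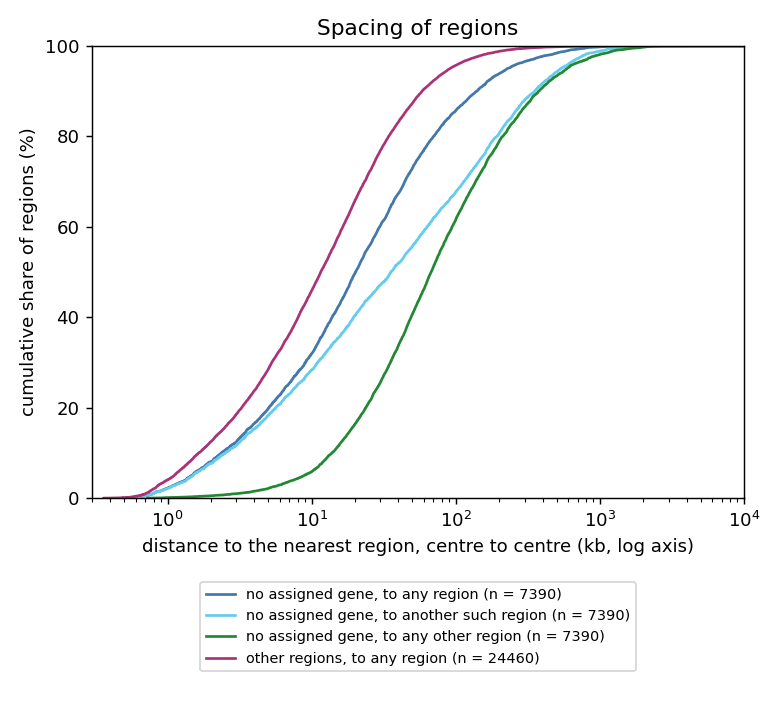
Cumulative share of regions (percent, vertical axis) by the distance to the nearest region, centre to centre (kb, log axis). For regions without an assigned gene the nearest region of the same set is closer than the nearest other region, with medians of 35.6 and 67.5 kb, and other regions lie closest to any region, with a median of 11.6 kb.

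With centres linked up to 50 kb apart, 4109 of the regions (55.6%, 54.5 to 56.7) fell into 1611 clusters, and 80 clusters held 5 or more. The largest, of 12, spanned 190 kb at chr8:120281287-120471498, without any other region inside. All 12 lay in Gse1, a gene of a chromatin corepressor subunit, as RefSeq draws it, 35.1 kb or more from the nearest region that the authors gave to that gene. Its heights ran from 6 to 54 in mutant and from 15 to 149 in wildtype, 3 regions were called in both, and the highest was at chr8:120319212-120320302. A cluster of 7 at chr3:93031359-93130951 lay in the epidermal differentiation complex between Lce1m and Crnn, genes of cornified and squamous epithelium. Its heights were from 9 to 21 in mutant and from 20 to 66 in wildtype, with 3 regions called in both.

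The other 3 of the 5 largest clusters held 8 regions each and had some that were higher in mutant. At chr1:86404748-86509923, between Nmur1 and the prothymosin gene Ptma, heights were from 4 to 44 in mutant and from 9 to 72 in wildtype. Its log2 ratios ran from -2.32 to 0.58 around a median of -0.52, and 3 regions were called in mutant only. The stretch also held 5 regions outside the set and overlapped the protein-coding gene Tex44 in RefSeq. At chr6:31032905-31191049, a stretch that holds Mir29a, Mir29b-1 and Lncpint in RefSeq, heights were from 8 to 42 and from 13 to 60, and log2 ratios from -1.16 to 0.51 around -0.56. It held 1 region outside the set. At chr1:154032366-154190722, between Glul and Zfp648, the median was -1.02, with ratios up to 0.28.

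Isolated regions were the lowest in both libraries and had the lowest ratios of mutant over wildtype. Where another region was within 10 kb, median heights were 14 in mutant and 32 in wildtype, the median log2 ratio was -1.17 and 49.8% were called in both (47.8 to 51.8). These values were 10, 26, -1.36 and 33.6% (30.6 to 36.7) for nearest distances from 50 to 100 kb, 8, 23, -1.52 and 20.6% (18.1 to 23.4) from 100 to 500 kb, and 5, 21, -1.84 and 8.47% (4.14 to 15.0) for the 118 regions more than 500 kb from any other. Other regions followed the same order, from -1.0 and 54.3% within 10 kb to -1.58 and 19.1% (9.15 to 33.3) for the 47 beyond 500 kb. Height moved with isolation, and within mean heights from 10 to 20 the medians still ran from -1.11 within 10 kb (848 regions) to -1.58 from 100 to 500 kb (507) and -1.85 beyond (77). The trend was weaker in higher classes. From 20 to 30 the medians were -1.18 within 10 kb, -1.16 from 10 to 50 kb, -1.25 from 50 to 100 kb, -1.36 from 100 to 500 kb and -1.53 beyond (14 regions). From 30 to 50 they were -1.16, -1.18, -1.35, -1.41 and, for 4 regions beyond 500 kb, -1.17. On autosomes the first and last medians were -1.16 and -1.84. Few isolated regions were called in both, and listing through wildtype alone favours a low ratio. In the class from 10 to 20, 3.90% of those beyond 500 kb were called in both, against 12.5% within 10 kb. The trend was not measured over regions called in both alone, so it cannot be told apart from the mix of calls.

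**Figure D4:**
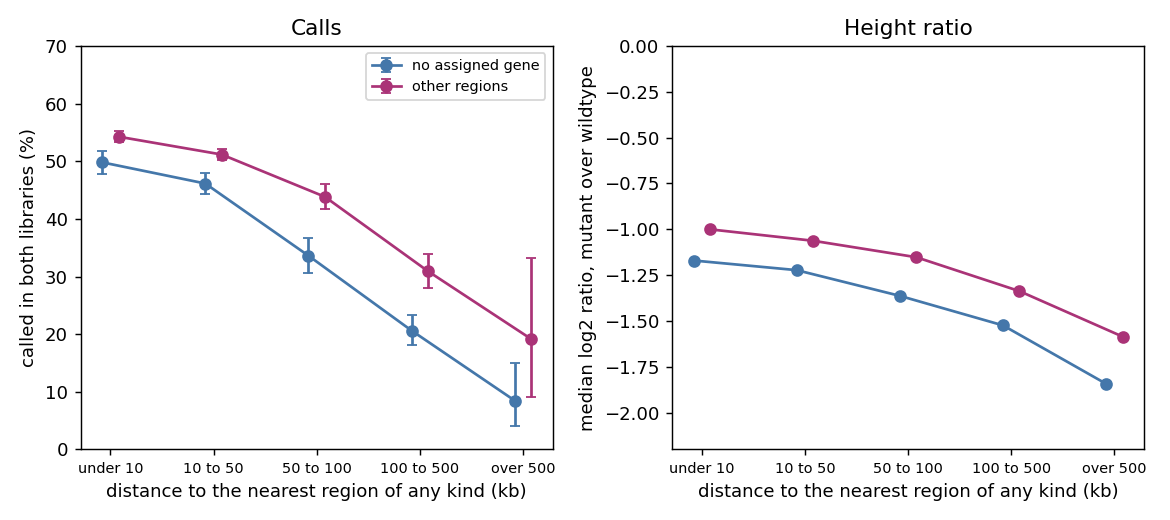
Share of regions called in both libraries (percent, left) and median log2 ratio of mutant over wildtype height (right) by the distance to the nearest region of any kind, in 5 classes (kb). Bars on the left are exact binomial 95% intervals; for regions without an assigned gene the nearest class has 49.8% and -1.17 and the farthest 8.47% and -1.84, and other regions follow the same order.

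The most isolated regions were low. The 4 farthest from any other region, Y aside, were at chrX:122826016-122826419 (4 in mutant and 13 in wildtype, 5750 kb away), chr2:88356276-88356695 among olfactory receptor genes (8 and 14), chr4:29301402-29301725 (7 and 23) and chr1:102078540-102078918 (1 and 17). The farthest of all was on Y, at 968349 to 968606 (2 and 14), where 13 regions were listed in all. All 5 were called in wildtype only. The log2 ratio on chromosome 2, -0.74, turned to 0.25 with the common scaling.

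Distance to genes gave the same order as distance to other regions. The nearest RefSeq protein-coding gene was a median of 34.5 kb away, edge to edge (quartiles 16.3 and 90.0, largest 2187). For 1964 regions less than 20 kb from one without overlap, median heights were 14 and 33, the median log2 ratio -1.15 (order-statistic 95% interval -1.19 to -1.12) and the share called in both 52.7% (50.5 to 55.0). For 997 regions from 100 to 250 kb these were 10, 25, -1.40 (-1.44 to -1.36) and 29.7% (26.9 to 32.6). For 230 regions beyond 500 kb they were 6, 22, -1.71 (-1.85 to -1.58) and 13.5% (9.34 to 18.6). The mix of calls bears on these ratios too.

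RefSeq overlap alone separated the regions less. Regions over a lncRNA gene had medians of 13 and 31 and a log2 ratio of -1.24 (-1.28 to -1.20), those over no gene 12 and 29 and -1.26 (-1.28 to -1.24), and those over a protein-coding gene 12 and 27.5 and -1.26 (-1.32 to -1.17). The shares called in both were 45.9% (42.9 to 48.9), 41.2% (39.9 to 42.5) and 43.7% (38.9 to 48.6). The 137 over other kinds of gene, such as pseudogenes, were lower, with 9 and 25 and 31.4% called in both (23.7 to 39.9).

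The 414 regions over protein-coding genes lay in 242 RefSeq genes, of which 161 were also in the authors' gene table through other intervals and 81 were not. Genes with the most were Gse1 and Lsamp, a neuronal adhesion gene, with 12 each. The Lsamp regions reached up to 41 in mutant and 112 in wildtype. Shank2, Robo2 and Psd3 had 6 each, and the Robo2 regions, at most 8 in mutant and 34 in wildtype, were all called in wildtype only. That call was made for 57.0% of regions without a gene and 49.0% of all regions, and low regions were seldom called in both. Krt78, an epithelial keratin gene at chr15:101946001-101996624, had 4 and was not in the authors' gene table used here. The highest of them, at chr15:101973336-101974376, reached 51 and 114, and that at chr15:101983586-101984977 45 and 75. That at chr15:101966709-101967285 had 22 and 16, a log2 ratio of 0.44 in favour of mutant, and the 4th had 11 and 26. Krt78 and the genes in this paragraph were picked after their values were seen.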

How the data were processed

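SRF immunoprecipitates of 1 mutant and 1 wildtype library were compared; the input was not used. The submitters' processing notes name BWA and the mm10 build. The way intervals were called, the threshold, and any removal of duplicates or scaling of libraries were details not given in the sources used here. Signal values (peak and average, per library) were deposited by the authors for merged regions and for intervals, and are whole numbers for peaks, per the file headers and values. Starts are given as listed, and whether they count from 0 is not stated.

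Ratios are log2 of mutant over wildtype height with a pseudocount of 1. Shares carry exact binomial 95% intervals and medians order-statistic intervals, which cover counting only. Like heights used 20 classes. RefSeq coordinates are of GRCm38.p6; 16225 of the authors' 16697 genes matched by identifier, 16224 on the same chromosome and 8543 with an identical start. Functions were tested on simulated data. Named regions are the 10 highest, the 5 largest ratios each way, the 5 highest called in mutant only, the 3 longest, the 5 most isolated and the 5 largest clusters; 1 of them is not reported here. The motif search planned around region centres was run in RefSeq promoter windows, since no genome sequence was used here. The set, lists and searches were chosen with earlier results of these data known, and the TGANTCA and CCANNAGNNGG searches and the overlap with RefSeq genes were added after the files were seen. Alternatives were average values, other pseudocounts, scaling, heights and linking distances. Python 3.11.15, numpy 2.4.6, pandas 2.3.3, scipy 1.17.1 and matplotlib 3.10.9 were used.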

Additional observations from a re-analysis of the deposited data

How the results depend on the processing

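No paired analysis was possible because a genotype was represented by a single library. The ratio on autosomes and both changes to the motif search were chosen after seeing the data. Among regions whose higher height was at least 28, 67.5% had an interval in both, 32.5% just in wildtype and 0.0255% just in mutant, and the median length was 657 bp. Regions of 1 interval had a median length of 497 bp. Average values gave medians of 5.64 in mutant and 11.3 in wildtype and a median log2 ratio of -0.96. A pseudocount of 5 gave -1.04 and 17 regions at least 2-fold higher in mutant (0.230%, against 0.196% of other regions). Regions called in both gave -1.03. Common scaling gave -0.25, with 1103 regions at least 2-fold higher in wildtype (14.9%, against 7.60% of other regions). In mutant 158 were then at least 2-fold higher (2.14%, against 5.32% of other regions). Linking at 25 kb put 44.3% of regions in clusters and linking at 100 kb 67.7%. CCANNAGNNGGC stood in 28.1% of windows with a summit. Including regions with a CpG island, leaving out X and Y, or measuring from edge to edge left the values within their intervals. Without the read totals, no limit of detection could be set for low regions.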

Other observations

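A further 197 regions had no assigned gene but overlapped a CpG island. Their median heights were 15 in mutant (quartiles 10 and 27) and 29 in wildtype (17 and 58), and their median length was 746 bp. An interval was called in both libraries at 116 of them (58.9%, exact binomial 95% interval 51.7 to 65.8), in wildtype only at 76 and in mutant only at 5. Their median log2 ratio of mutant over wildtype was -1.0. A 2-fold or larger difference in favour of wildtype was listed for 100 of them (50.8%, 43.6 to 57.9), and in favour of mutant for 0.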
